A study of Mus musculus with 6 samples.

Results

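miR-204 and miR-211 are a pair of mouse microRNAs (miRNAs) made from introns of genes for TRPM cation channels, and they were described here in small RNA libraries of contused and uninjured spinal cord. Members were the rows of the deposited miRNA table whose names begin with mmu-miR-204- or mmu-miR-211-, which gave 3 rows, mmu-miR-204-5p, mmu-miR-204-3p and mmu-miR-211-5p (mmu stands for mouse and is left off below), of 1482. Rows were chosen by name, and the family was selected on the read counts of the SCI-labelled against the control-labelled libraries, so that difference is given below as a description, without a p-value. Mice of the group labelled SCI (spinal cord injury) had a laminectomy and then a moderate contusion at the T10 level with a 10 g weight dropped 20 mm. Control-labelled mice had the laminectomy at T10 alone. Mice of both groups were killed on day 2, and about 1 cm of cord centred on T10 was sampled, 3 libraries per group. The labels name neither strain, sex nor age. The libraries are taken to be 1 mouse each; otherwise the spread given here would be technical.

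A miRNA hairpin is cut into a 5p and a 3p arm, and the arm that is kept in the silencing complex finds its target messages mainly through its seed, bases 2 to 8. The hairpin of miR-204 lies in Trpm3, which encodes a channel opened by heat and by neurosteroids and is strongly expressed in choroid plexus. The hairpin of miR-211 lies in Trpm1, which encodes a channel of melanocytes and of retinal bipolar cells. miR-204 is known from choroid plexus, retinal pigment epithelium and brain, and miR-211 from pigment cells; in human retinal pigment epithelium both are known to sustain the epithelial state, with the TGF-beta receptor and SNAI2 among their targets.

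The mature sequences are shown because they decide which rows belong together and which rows can exchange reads. They are from RefSeq on GRCm38.p6, the assembly that mm10 denotes, written 5′ to 3′ with the seed in capitals; all 3 members matched the table by name, and miR-211-3p, not analysed here, is shown for comparison.
miR-204-5p: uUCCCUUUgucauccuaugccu
miR-211-5p: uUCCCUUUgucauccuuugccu
miR-204-3p: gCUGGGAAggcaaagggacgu
miR-211-3p: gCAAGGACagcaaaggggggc
The 5p arms were identical at 21 of 22 bases and had the same seed. Their single difference, A17U, counted from 1 at the 5′ end of miR-204-5p, lies outside the seed. The 3p arms were less alike, with 14 of 21 bases identical and different seeds. Of the 1679 mature miRNAs in the RefSeq table, only miR-204-5p, miR-211-5p and miR-7670-3p began with this 5p seed. The miR-204-3p seed occurred in 1 other, miR-7684-5p, which was not analysed here.

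The hairpins are shown with both mature arms in capitals, to place the arms in their precursors.
Mir204: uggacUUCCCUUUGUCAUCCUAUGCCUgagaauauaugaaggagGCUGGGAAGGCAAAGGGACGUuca
Mir211: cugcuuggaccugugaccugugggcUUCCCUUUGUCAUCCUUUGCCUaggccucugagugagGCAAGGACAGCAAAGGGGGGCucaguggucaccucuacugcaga
Mir204 occupies chr19:22750605-22750672 on the plus strand, the strand of its host Trpm3 (chr19:22139046-22995410). In GENCODE M21 all 18 Trpm3 transcripts that span the hairpin held it in an intron, and in 14 of them this was the intron from 22733172 to 22766633. The hairpin began 17433 bases after the upstream exon and ended 15961 bases before the next. Mir211 occupies chr7:64205806-64205911 on the plus strand, also the strand of its host Trpm1 (chr7:64153835-64269775). All 12 Trpm1 transcripts that span it held it in an intron, which for 9 of them ran from 64204594 to 64208275. The arms were 17 bases apart in Mir204 and 15 in Mir211. Host messages were not measured in these small RNA libraries.

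Total counts were 7100472 to 8889977 per SCI-labelled library and 5568491 to 7360149 per control-labelled library. Levels are CPM, counts per 1000000 counts of the library, scaled by TMM, a scaling that sets the typical row equal between libraries. The labels ran against known injury miRNAs. All 9 tested rows of the injury list passed the test described below as lower in SCI-labelled libraries, against 23.1% of all tested rows. The 9 include both arms of miR-21a and of miR-142a, so they are not all separate markers. Among them miR-21a-5p, which is widely reported to rise in damaged tissue, was at 12001 ± 774 CPM in SCI-labelled and 100064 ± 27257 CPM in control-labelled libraries (SD, n = 3 each). miR-146a-5p of that list lost its call without SCI-labelled library 1 or 3 or control-labelled library 1 or 2 (edgeR adjusted p = 0.0555 to 0.0937). The myeloid miR-223-3p was at 8.45 ± 2.53 and 114 ± 18.6 CPM, and the leukocyte miR-142a-3p at 61.0 ± 25.3 and 434 ± 81.5 CPM, in SCI-labelled and control-labelled libraries (SD, n = 3 each). The columns assigned to SCI-labelled samples also have names that begin with Normal. Every direction below is therefore that of the labels as deposited. Cord tissue was evident in both groups: the oligodendrocyte miRNA miR-219a-2-3p was at 9226 ± 536 CPM in SCI-labelled and 8763 ± 1643 CPM in control-labelled libraries (SD, n = 3 each).

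miR-204-5p, the main product of the Trpm3 hairpin, was more abundant in the SCI-labelled libraries. It had 14540, 10714 and 15772 counts in SCI-labelled libraries 1, 2 and 3, against 5200, 4238 and 4645 in control-labelled libraries 1, 2 and 3. Scaled, these were 1801, 1660 and 1786 CPM in the SCI-labelled and 832, 767 and 547 CPM in the control-labelled libraries. The groups did not overlap, and the lowest SCI-labelled library was 1.99 times the highest control-labelled one. The group means were 1749 ± 77.4 CPM in SCI-labelled and 715 ± 150 CPM in control-labelled libraries (SD, n = 3 each), a fitted 2.45-fold difference (log2 1.29, SE 0.21). The SCI-labelled libraries lay close together, with a coefficient of variation of 4.42%, against 20.9% among the control-labelled ones, where library 3 was the lowest. By count miR-204-5p ranked 58th to 64th of the 1482 rows in the SCI-labelled libraries and 89th to 114th in the control-labelled ones. In pieces of whole cord, more cells that make a miRNA and more of it per cell cannot be told apart.

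miR-204-3p, the less abundant arm of the same hairpin, differed in the same direction. It had 416, 415 and 668 counts in SCI-labelled libraries 1, 2 and 3, against 159, 95 and 101 in the control-labelled ones. This came to 51.5, 64.3 and 75.7 CPM in the SCI-labelled and 25.5, 17.2 and 11.9 CPM in the control-labelled libraries. Again the groups did not overlap and control-labelled library 3 was the lowest. The means were 63.8 ± 12.1 CPM in SCI-labelled and 18.2 ± 6.84 CPM in control-labelled libraries (SD, n = 3 each), a fitted 3.52-fold difference (log2 1.82, SE 0.31).

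miR-211-5p was near the limit of what these libraries could count. It had 13, 11 and 10 counts in SCI-labelled libraries 1, 2 and 3, against 5, 5 and 6 in the control-labelled ones. Here too the groups were separate, at 1.61, 1.70 and 1.13 CPM in the SCI-labelled and 0.800, 0.905 and 0.706 CPM in the control-labelled libraries. The counts were too few for the row to pass the filter on low counts. Over each group there were 34 counts in SCI-labelled and 16 in control-labelled libraries, a ratio per total count of 1.74 with an exact 95% interval of 0.933 to 3.37 for counting error only. That interval includes equality, so the counts alone do not show a difference in miR-211-5p at this depth. It pools the reads of each group and holds no term for the spread between libraries, so nothing further is read from it. A fit on all 1411 rows with any count gave log2 0.90 (SE 0.58).

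**Figure D1:**
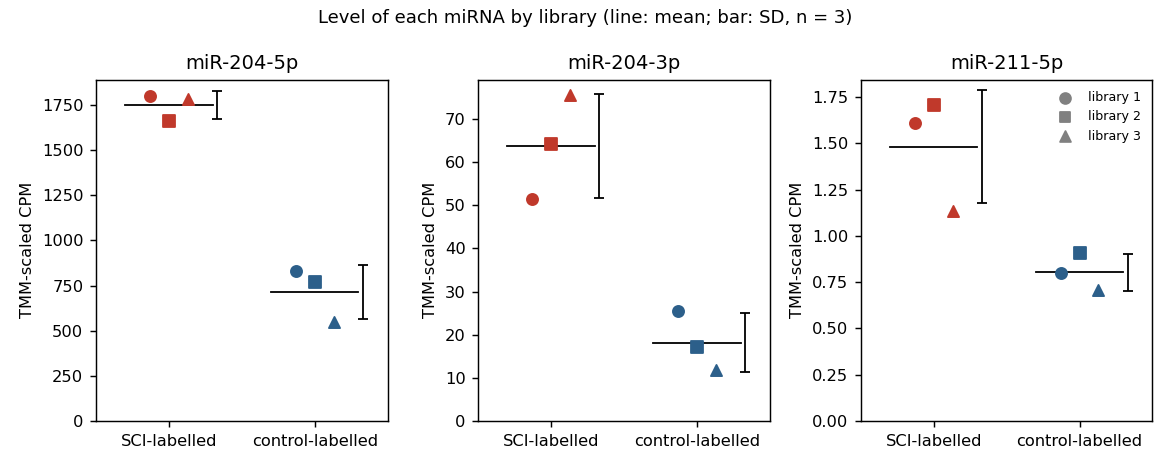
TMM-scaled CPM (vertical axes, each from 0) of miR-204-5p, miR-204-3p and miR-211-5p in the 3 SCI-labelled and 3 control-labelled libraries; points are libraries, lines are group means and bars are the SD. Both miR-204 arms lie higher in every SCI-labelled library, and miR-211-5p stays below 2 CPM in all 6 libraries.

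The table as a whole gives the background for these differences. Of 614 rows that passed the filter, edgeR's quasi-likelihood test at an adjusted p of 0.05 called 16.3% higher in SCI-labelled libraries and 23.1% lower, and both miR-204 arms, the 2 members tested, were among those called higher. Since this contrast was known when the family was picked, nothing is read from that count. Both arms had at least 95 counts in every library, so neither passed the filter through 1 group only. In 23.3% of the tested rows all SCI-labelled libraries lay above all control-labelled ones, and in 28% all lay below. The fitted log2 fold change was at least 1 in 10.4% and -1 or less in 17.8%. Over the 1411 rows with any count, 10.8% had all SCI-labelled libraries above all control-labelled ones per total count and 18.3% had all below, which is the background for miR-211-5p. By size of the log2 fold change in either direction, miR-204-3p was 59th of the 614 rows and miR-204-5p 120th. Among signed values, in the direction of the labels, they were 4th and 35th from the top, on a table whose median was -0.07.

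The balance of the arms within a library carries no scaling term. miR-204-3p made up 2.78% (exact 95% binomial interval 2.52 to 3.06), 3.73% (3.38 to 4.10) and 4.06% (3.77 to 4.38) of miR-204 reads in SCI-labelled libraries 1, 2 and 3. In control-labelled libraries 1, 2 and 3 it made up 2.97% (2.53 to 3.46), 2.19% (1.78 to 2.67) and 2.13% (1.74 to 2.58). The groups overlapped, since SCI-labelled library 1 was below control-labelled library 1. The 5p arm dominated in all 6 libraries, with 23.6 to 35.0 reads per 3p read in the SCI-labelled and 32.7 to 46.0 in the control-labelled libraries. The mean log2 ratio of 5p to 3p reads was 4.79 ± 0.30 in SCI-labelled and 5.34 ± 0.27 in control-labelled libraries (SD, n = 3 each), a difference of -0.55 (SE 0.23). Among 179 hairpins with both arms tested, the median size of this difference was 0.67, and 97 hairpins exceeded miR-204.

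Relative to miR-204-5p, miR-211-5p varied between libraries within its counting error. Of the reads of both 5p arms, it held 0.0893%, 0.103% and 0.0634% in SCI-labelled libraries 1, 2 and 3, and 0.0961%, 0.118% and 0.129% in control-labelled libraries 1, 2 and 3. The groups overlapped, and so did the exact 95% binomial intervals of all 6 libraries, from a lowest bound of 0.0304% to a highest of 0.281%. Put otherwise, there were 974 to 1577 miR-204-5p reads per miR-211-5p read in the SCI-labelled and 774 to 1040 in the control-labelled libraries. The mean log2 ratio of miR-211-5p to miR-204-5p reads was -10.16 ± 0.35 in SCI-labelled and -9.65 ± 0.21 in control-labelled libraries (SD, n = 3 each), a difference of -0.51 (SE 0.24). The 2 sequences printed above differ only by A17U, and the labels do not say how reads with a mismatch were assigned. How many of the 10 to 13 and 5 to 6 miR-211-5p counts were miR-204-5p reads with an altered base was not tested.

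**Figure D2:**
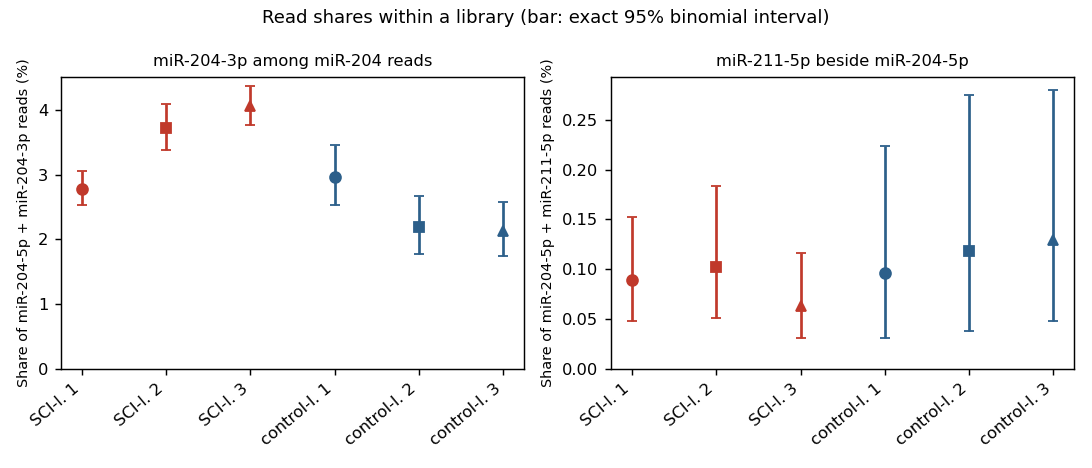
Left, miR-204-3p as a percentage of miR-204-5p and miR-204-3p reads; right, miR-211-5p as a percentage of miR-204-5p and miR-211-5p reads. Each point is 1 library (SCI-l., SCI-labelled; control-l., control-labelled) and bars are exact 95% binomial intervals; the 3p share ranges from 2.13% to 4.06% with the groups overlapping, and the miR-211-5p share is at most 0.129%.

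The seed of miR-204-5p was carried almost wholly by that row. The third row with the seed, miR-7670-3p, had 13 of 22 bases identical in place to miR-204-5p, those of the seed included.
miR-7670-3p: uUCCCUUUcugaauaucuguaga
It had 1, 2 and 0 counts in SCI-labelled libraries 1, 2 and 3, and 0, 4 and 2 in the control-labelled ones. With all 3 rows summed, reads with the seed made up 0.184%, 0.151% and 0.178% of SCI-labelled libraries 1, 2 and 3, against 0.0789%, 0.0763% and 0.0632% of control-labelled libraries 1, 2 and 3. miR-204-5p supplied 99.8% to 99.9% of them in each of the 6 libraries.

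Rows that ran most like each miR-204 arm were found by the root mean square difference of log2 CPM, centred on each row's mean over the 6 libraries; small values are similar. The 2 arms themselves were 0.352 apart, and 58 of the other 613 tested rows lay closer to miR-204-5p than its own 3p arm did. Nearest to miR-204-5p were miR-330-5p (0.103) and miR-369-5p (0.104), then miR-128-3p (0.133), miR-543-3p (0.158) and miR-10b-5p (0.161), against a median of 0.785 over all tested rows. miR-369-5p and miR-543-3p come from the imprinted Dlk1-Dio3 region, miR-128-3p is a miRNA of neurons, and miR-10b-5p is hosted in a Hox cluster. Their log2 fold changes were 1.35 for miR-330-5p, 1.16 for miR-369-5p, 1.46 for miR-128-3p, 1.34 for miR-543-3p and 1.17 for miR-10b-5p. These likenesses take in the difference between the groups, so a row with a similar fold change is near by construction.

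Nearest to miR-204-3p were miR-615-3p (0.229), miR-1298-5p (0.233), miR-434-5p (0.256), miR-1843b-3p (0.279) and miR-708-3p (0.281), against a median of 1.06. miR-615-3p is hosted in a Hox gene, miR-1298-5p in Htr2c, miR-434-5p in the Dlk1-Dio3 region and miR-708-3p in Tenm4. Within the control-labelled group these rows, like miR-204-3p, were highest in library 1 and lowest in library 3. For miR-1298-5p the levels were 2382, 1879 and 2337 CPM in SCI-labelled libraries 1, 2 and 3 and 897, 498 and 422 CPM in control-labelled libraries 1, 2 and 3.

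**Figure D3:**
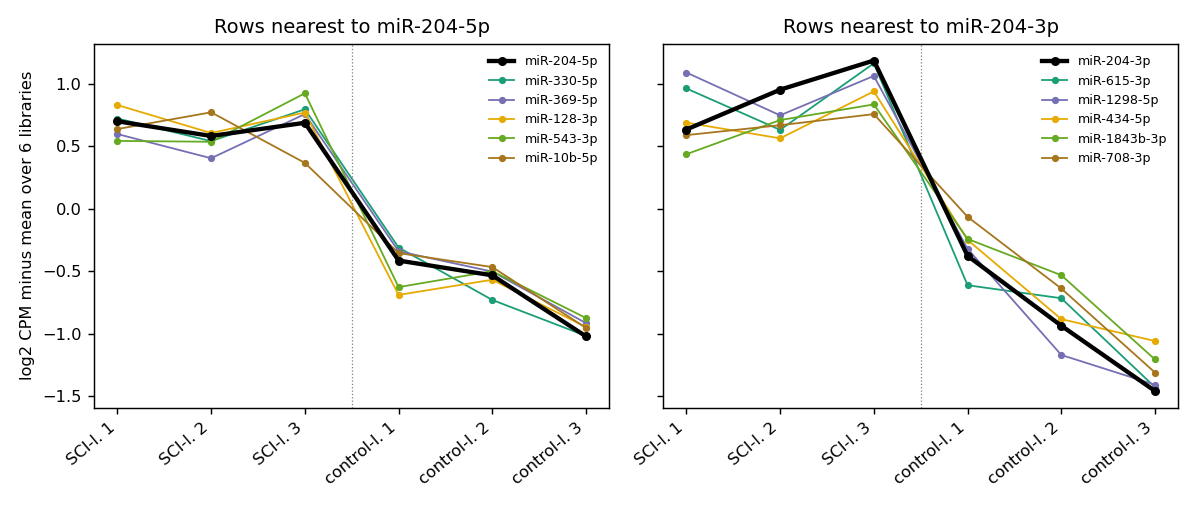
log2 CPM minus each row's mean over the 6 libraries (vertical axis) for miR-204-5p (left, black) and miR-204-3p (right, black), each with the 5 rows of at least 50 CPM nearest to it; libraries run along the horizontal axis. All lines drop between the SCI-labelled and control-labelled libraries, and both arms are lowest in control-labelled library 3, at -1.02 for miR-204-5p and -1.46 for miR-204-3p.

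miRNAs hosted by Htr2c, the serotonin receptor gene that is highly expressed in choroid plexus as Trpm3 is, had many members higher in the SCI-labelled libraries. Of 10 listed rows 7 were tested. By the edgeR test 5 rose, against 16.3% of all tested rows, and 2 did not pass. The median log2 fold change was 1.18, against -0.07 for all tested rows. The 5 were miR-1298-5p (log2 1.86), miR-1264-5p (1.40), miR-764-5p (1.38), miR-1298-3p (1.18) and miR-1264-3p (1.13). miR-448-5p (0.37) and miR-448-3p (0.23) did not pass. The call of miR-1264-3p was lost without any library other than SCI-labelled 2 or control-labelled 3 (edgeR adjusted p up to 0.106), and miR-448-5p rose without control-labelled library 3 (log2 1.60, edgeR adjusted p = 0.0213). Summed, the list stood at 2150 to 2706 CPM in the SCI-labelled and 599 to 1021 CPM in the control-labelled libraries. Most of that sum was miR-1298-5p. The samples were pieces of cord, not of choroid plexus, and which cells made these miRNAs was not tested.

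miRNAs of the eye list mostly did not follow miR-204. Of 4 tested, 1 rose, against 16.3% of all tested rows: miR-96-5p, a miRNA of sensory cells (log2 1.50). Its cluster partners miR-182-5p (0.39) and miR-183-5p (0.28) and the lens and corneal miR-184-3p (-0.26) did not pass. The list median was 0.34. The cluster partners are not separate markers. No listed row is described here as a marker of pigment epithelium, so nothing is read about those cells. miRNAs of the epithelial list ran the other way. All 6 tested members fell in the SCI-labelled libraries, against 23.1% of all tested rows. Their log2 fold changes, with a median of -1.98, were miR-200c-3p (-3.65), miR-200b-3p and miR-141-3p (-2.27 each), miR-203-3p (-1.68), miR-205-5p (-0.95) and miR-200a-3p (-0.93). The call of miR-205-5p was lost without any 1 of the 6 libraries (edgeR adjusted p = 0.0730 to 0.184) and by DESeq2 (adjusted p = 0.115), and that of miR-200a-3p when either control-labelled library 1 or 1 of the 3 SCI-labelled ones was left out (0.0689 to 0.111). The epithelial list summed to 110 to 162 CPM in the SCI-labelled and 401 to 504 CPM in the control-labelled libraries. In every library most of that sum was miR-203-3p. Of 5 tested miRNAs of multiciliated cells such as ependyma, 1, miR-34c-3p (-1.21), fell, against 23.1% of all tested rows. The other 4 did not pass, and the list median was -0.31. The most abundant, miR-34c-5p (-0.24) and miR-34b-3p (-0.61), were among those that did not pass. miR-34b-3p was close to the threshold (edgeR adjusted p = 0.0584); it passed without control-labelled library 3 (log2 -0.64, edgeR adjusted p = 0.0313) and by limma voom with all 6 libraries (adjusted p = 0.0357).

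Among markers of other cell types, the neuronal members called were higher, as miR-204 was, and the leukocyte and red cell members called were lower. Of 8 neuronal miRNAs 4 rose, against 16.3% of all tested rows, and 4 did not pass, with a median of 1.02. The 4 that did not pass were miR-137-3p (log2 0.79), miR-138-5p (0.61), miR-132-3p (-0.09) and miR-124-3p (-0.52). The negative value of miR-124-3p came with a high level in control-labelled library 3. It was at 797, 756 and 812 CPM in SCI-labelled libraries 1, 2 and 3, and 660, 725 and 2008 CPM in the control-labelled ones. The most abundant, miR-218-5p (1.42) and miR-128-3p (1.46), both rose and together made up most of the list sum. That sum was 32666 to 38339 CPM in the SCI-labelled and 13051 to 16178 CPM in the control-labelled libraries. By limma voom with all 6 libraries 6 of the 8 rose, with miR-137-3p (adjusted p = 0.00528) and miR-138-5p (0.0174) added, and the same 2 were added by edgeR without control-labelled library 3; miR-153-3p lost its call without SCI-labelled library 1 or 3 (edgeR adjusted p = 0.0681 and 0.0706). Of 6 leukocyte miRNAs 5 fell, against 23.1% of all tested rows, and 1 did not pass, with a median of -2.53. Among them miR-142a-5p fell (-3.88) and miR-342-3p (0.01) did not pass. This list shares miR-142a-5p, miR-142a-3p, miR-223-3p and miR-155-5p with the injury list, so the lists are not separate observations. miR-150-5p did not pass with control-labelled library 1 or 1 of the 3 SCI-labelled ones left out (edgeR adjusted p = 0.0650 to 0.111). The leukocyte sum was 723 to 738 CPM in the SCI-labelled and 2134 to 3328 CPM in the control-labelled libraries. All 4 red cell miRNAs fell, against the same 23.1% of all tested rows, with a median of -3.01. Among them were miR-451a (-2.56) and miR-486a-5p (-3.57). The red cell sum was 2481 to 5230 CPM in the SCI-labelled and 9424 to 32712 CPM in the control-labelled libraries. Every member of the neuronal, leukocyte and red cell lists had counts in all 6 libraries. Their part in the miR-204 difference was not tested.

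The other lists had 0 members past the edgeR test, and 0 also at an unadjusted p under 0.05, by DESeq2 and by limma voom. These were 5 oligodendrocyte miRNAs (median log2 -0.02), among them miR-219a-2-3p (0.07) and miR-219b-5p (-0.02); 3 astrocyte miRNAs (-0.10), among them miR-29a-3p (-0.10) and miR-29b-3p (0.34); and 2 endothelial miRNAs (-0.35), miR-126a-3p (-0.26) and miR-126a-5p (-0.45). Skeletal muscle miRNAs (4 tested, median -0.71), led by miR-1a-3p (-0.32) and miR-133a-3p (-0.83), set control-labelled library 3 apart. Their sum was 37767 CPM there, against 8282 and 11914 CPM in the other control-labelled libraries and 9815 to 20419 CPM in the SCI-labelled group. Without that library 2 of 3 astrocyte, 2 of 4 muscle and 1 of 5 oligodendrocyte miRNAs rose and 1 of 2 endothelial miRNAs fell, and the muscle median was 0.95. Control-labelled library 3 also had the lowest level of both miR-204 arms. Without it the fitted log2 fold changes were 1.17 for miR-204-5p and 1.62 for miR-204-3p, in the same direction as with it.

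**Figure D4:**
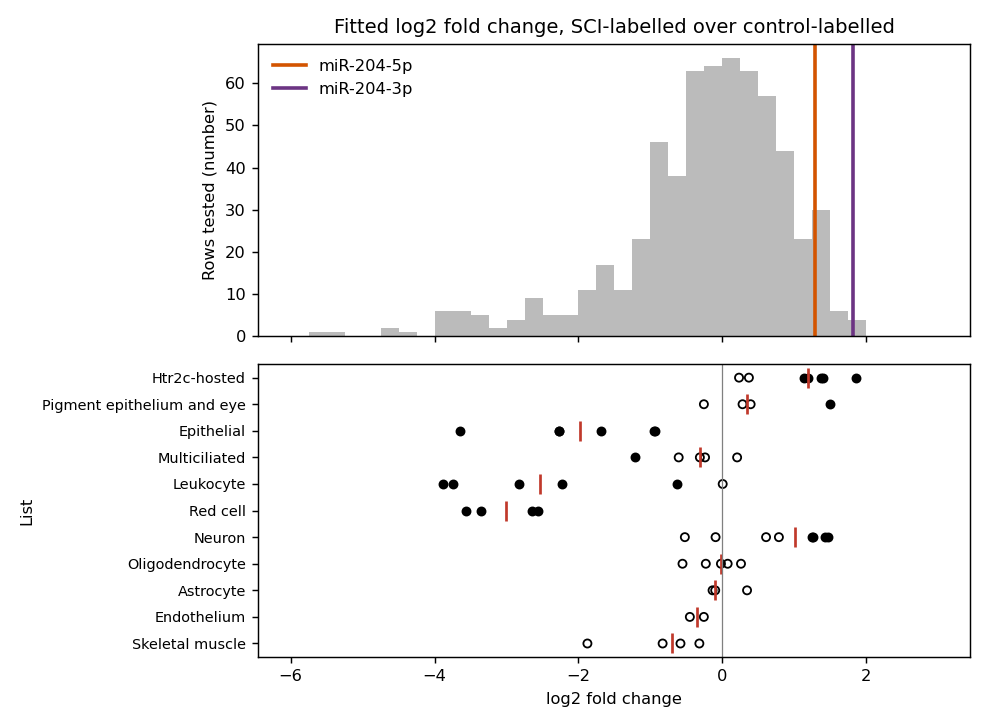
Top, number of tested rows by fitted log2 fold change (SCI-labelled over control-labelled), with vertical lines at 1.29 for miR-204-5p and 1.82 for miR-204-3p. Bottom, the tested members of marker lists on the same axis, filled where past the edgeR test and open where not, with the list median as a red bar. The medians of the Htr2c-hosted list (1.18) and the neuronal list (1.02) lie nearest to miR-204. Those of the epithelial (-1.98), leukocyte (-2.53) and red cell (-3.01) lists lie on the opposite side of 0.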

How the data were processed

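Small RNA libraries were made with a NEBNext kit from 3 µg of total RNA per sample, per the labels' protocols. Bowtie and the mm10 build are named without versions in the submitters' processing notes; the miRBase release, mismatch allowance and handling of reads with several matches are not stated there. The authors deposited whole-number read counts per row and TPM values, which equal counts per 1000000 of the column total and hold no length term. The fit used edgeR 4.0.16 under R 4.3.3: filterByExpr with a minimum count of 10 kept 614 rows (99.98% of counts), libraries were scaled by TMM, and the robust quasi-likelihood F test had group as its only term, with Benjamini-Hochberg adjustment over all 614 rows and a threshold of 0.05. A standard error is the absolute log2 fold change divided by the root of F. miR-211-5p, below the filter, was fitted on all rows with a count. Log2 read ratios used 0.5 added to each count. Intervals are exact binomial ones and cover counting error of reads only, with no term for the spread between libraries. Reads carry no molecular identifiers, so copies of the same molecule are counted as separate reads, which the intervals do not allow for.

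The members and marker lists were chosen with earlier results of these data known. Rows were named by rule: the members, rows with their seeds, the 5 rows of at least 50 CPM nearest to each tested miR-204 arm, all tested members of the Htr2c, eye and epithelial lists, miR-21a-5p, miR-223-3p and miR-142a-3p as a check of the labels, and the 2 most abundant members of each other list, the injury list included. miR-153-3p, miR-150-5p, miR-34c-3p, miR-137-3p, miR-138-5p, miR-124-3p, miR-132-3p and miR-155-5p fall outside it and were named after their values were seen. Alternatives covered scaling, filter, DESeq2 1.42.0, limma 3.58.1 (voom, and log2 of deposited TPM), the replicate number as a block, and leaving out each library or the 10 most abundant rows. List counts without control-labelled library 3 were added after seeing the data. The fitting step was also run on simulated data, from which nothing is read about the present libraries.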

Additional observations from a re-analysis of the deposited data

How the results depend on the processing

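The direction of the miR-204-5p difference held under all 17 alternatives, with log2 fold changes of 1.20 to 1.40 across scalings, filters, tools and pseudocounts and 1.17 to 1.48 when each library was left out in turn. For miR-204-3p these were 1.35 to 1.94 and 1.62 to 2.20; the lowest, 1.35, came from log2(TPM + 10), with levels of 52.7 to 75.1 TPM in the SCI-labelled and 13.7 to 24.1 TPM in the control-labelled libraries, the second range close to the pseudocount. For miR-211-5p the log2 fold change was 0.41 with log2(TPM + 1) and 0.080 with log2(TPM + 10), again with a pseudocount near or above its level, 0.72 to 1.10 under the other settings, and 0.75 to 1.06 with a library left out; it passed no test run. Leaving the 10 most abundant rows out of the totals gave 1.35, 1.87 and 0.88 for miR-204-5p, miR-204-3p and miR-211-5p. The difference in the log2 ratio of 5p to 3p reads was -0.71 to -0.43 with a library left out, and that of miR-211-5p to miR-204-5p -0.66 to -0.32.

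The background moved more. With a library left out, 54 to 152 rows were called higher and 87 to 179 lower, against 100 and 142; 152 rows stood higher without control-labelled library 3, 63 without SCI-labelled library 1 and 54, with 87 lower, without SCI-labelled library 3. The median of all rows was 0.04 by the upper quartile and -0.15 by library total, against -0.07. Same-numbered libraries did not deviate together (correlations of -0.257, 0.172 and -0.178), and not every library correlated best with its own number. These numbers, also used as the block, are those of the sample titles. The columns of the control-labelled libraries carry other numbers. Pairs sharing a column number were SCI-labelled 2 with control-labelled 1 (0.122) and SCI-labelled 3 with control-labelled 2 (0.0724). A block by column number was not tested. With the replicate number as a block, 78 rows were higher and 112 lower, and the log2 fold changes were 1.31, 1.86 and 0.89 for miR-204-5p, miR-204-3p and miR-211-5p. Depth limits miR-211-5p, with at most 13 counts in a library.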
